A study of Homo sapiens with 24 samples.

Results

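The spindle assembly checkpoint and the chromosomal passenger complex were followed through 10 of their genes, chosen by name because MPS1, the kinase that reversine inhibits, is the product of one of them, TTK. The other 9 were BUB1, BUB1B, BUB3, MAD2L1, CDC20, KNL1, AURKB, INCENP and BIRC5. Each name stood for 1 identifier among the 58735 genes of the count table, and all 10 passed the filter on low counts in both cell lines. RNA was sequenced from clones of OE33 and SK-GT-4, both established esophageal adenocarcinoma (EAC) lines, that expressed Cas9 alone (cGAS-proficient control) or carried a CRISPR-Cas9 knockout of cGAS (cGAS KO), the sensor of cytosolic DNA. Cells of each genotype received DMSO or the MPS1 inhibitor reversine (MPS1i) at 500 nM for 48 hours, a treatment used to induce chromosomal instability. The 8 groups held 3 libraries each, 1 per batch, which made 24 libraries. The sources used here do not say that a genotype was represented by more than 1 clone per line, so genotype and clone cannot be told apart.

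The checkpoint delays anaphase until every chromosome is attached to the spindle. At an unattached kinetochore MPS1 phosphorylates the scaffold KNL1, which recruits BUB1 with BUB3, and MAD2 (encoded by MAD2L1) then joins BUBR1 (encoded by BUB1B), BUB3 and CDC20 in a complex that holds the anaphase-promoting complex (APC/C) inactive. The chromosomal passenger complex, in which INCENP and survivin (encoded by BIRC5) position the kinase Aurora B (encoded by AURKB), corrects faulty attachments. Most of these genes are transcribed mainly in G2 and mitosis, so in a bulk culture fewer cells in mitosis and less RNA per cell cannot be told apart.

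Of the 10 genes, 6 had an entry in the RefSeq promoter table (GRCh38.p14, 250 bases before to 50 bases after the transcription start): BUB1, BUB1B, MAD2L1, CDC20, AURKB and INCENP. Promoters of G2 and mitosis genes are known for the cell cycle genes homology region (CHR), the binding element of the MuvB complexes, and for CCAAT boxes bound by NF-Y. The CHR word TTTGAA was searched on both strands and found in 4 of the 6 promoters, against 15.2% of the 35116 promoters in the table. Its variants were TTTAAA, found in 0 of the 6 and in 12.2% of all, and TTCGAA, found in BUB1 alone and in 1.45% of all. One of these words was thus in 5 of the 6 promoters and in 25.1% of all, and CCAAT on either strand was in 5 of the 6 and in 34.6% of all. The E2F words TTTCCCGC, TTTGGCGC, TTTCGCGC and TTTGCCGC, searched on both strands, were in 0 of the 6 and in 3.31% of all. The 3 promoters printed here belong to the genes with an unadjusted p under 0.05 for MPS1i against DMSO in both OE33 genotypes. Capitals mark CHR words and CCAAT on either strand, and each sequence runs 5′ to 3′ on the gene's own strand.
CDC20: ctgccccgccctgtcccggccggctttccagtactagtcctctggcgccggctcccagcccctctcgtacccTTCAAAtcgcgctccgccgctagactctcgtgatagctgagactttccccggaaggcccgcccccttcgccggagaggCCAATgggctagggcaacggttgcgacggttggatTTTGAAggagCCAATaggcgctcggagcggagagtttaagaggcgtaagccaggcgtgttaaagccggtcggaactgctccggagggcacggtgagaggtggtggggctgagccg
BUB1B: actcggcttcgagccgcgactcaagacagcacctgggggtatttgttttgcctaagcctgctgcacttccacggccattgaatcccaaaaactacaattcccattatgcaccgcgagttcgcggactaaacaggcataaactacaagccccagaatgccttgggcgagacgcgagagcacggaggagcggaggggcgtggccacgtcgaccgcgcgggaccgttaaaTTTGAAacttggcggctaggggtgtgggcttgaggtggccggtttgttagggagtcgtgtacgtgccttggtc
AURKB: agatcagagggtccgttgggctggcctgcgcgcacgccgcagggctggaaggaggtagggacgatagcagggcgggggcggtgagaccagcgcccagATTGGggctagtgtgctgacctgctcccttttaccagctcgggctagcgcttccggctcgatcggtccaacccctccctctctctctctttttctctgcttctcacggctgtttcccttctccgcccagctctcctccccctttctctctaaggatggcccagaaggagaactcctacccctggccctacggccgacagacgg
The CDC20 window, chr1:43358731-43359030 on the plus strand, held TTTGAA at bases -65 to -60 from the start, between CCAAT at -100 to -96 and CCAAT at -55 to -51, and a further TTTGAA on the opposite strand at -178 to -173. The BUB1B window, chr15:40160819-40161118 on the plus strand, held TTTGAA at -23 to -18 and no CCAAT. The AURKB window, chr17:8210176-8210475 on the minus strand, held CCAAT on the opposite strand at -153 to -149 and no CHR word. The table held 2 overlapping windows for AURKB, and the other, chr17:8210200-8210499, held the same CCAAT at -129 to -125 and no CHR word. These are matches of letters, and binding was not measured.

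Total counts ranged from 15561268 to 25284177 per library, and the 10 genes took 0.0703 to 0.114% of the counts in OE33 and 0.113 to 0.188% in SK-GT-4. CGAS lay at 28.9 to 41.6 CPM (counts scaled to a common library size with TMM factors) in OE33 Cas9 libraries and at 2.31 to 2.82 CPM in OE33 cGAS KO libraries, except for 15.6 CPM in OE33 cGAS KO DMSO replicate 2, and at 14.7 to 26.1 against 2.22 to 6.09 CPM in SK-GT-4. Summed leukocyte markers (PTPRC, CD3E, LYZ) did not exceed 0.252 CPM. The epithelial markers EPCAM, CDH1, KRT8, KRT18 and KRT19 summed to 16301 to 22543 CPM in OE33 and to 3678 to 19356 CPM in SK-GT-4, where CDH1 had a median of 17.6 CPM against 426 in OE33. Fibroblast markers summed to 0.405 to 7.03 CPM in OE33 and 4.33 to 81.7 CPM in SK-GT-4 (mostly COL1A1, with DCN at a median of 0), and endothelial markers to at most 0.362 CPM in OE33 and 5.40 to 19.2 CPM in SK-GT-4; their part in differences between the lines was not tested. SK-GT-4 Cas9 MPS1i replicate 2 and the batch 1 library of SK-GT-4 cGAS KO in DMSO stood apart. Their deviations from the line's median across genes had an SD of 0.846 and 1.02 on the log2 scale, against at most 0.598 in the other 22 libraries, and correlated with gene length (Spearman's rho -0.444 and -0.435 across 9947 genes, which are not independent replicates). In the other 22 libraries this rho ran from -0.341 (OE33 cGAS KO DMSO replicate 1) to 0.384 and 0.380 (the DMSO and MPS1i libraries of batch 2 of SK-GT-4 cGAS KO). SK-GT-4 values that the 2 libraries moved are given with and without them.

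CDC20, the activator of the APC/C and the target of the checkpoint, had the highest level per gene length in both lines, and KNL1 had the lowest. Per kilobase of transcript, CDC20 averaged 73.2 CPM in OE33 and 168 CPM in SK-GT-4, and KNL1 averaged 1.46 and 0.982 CPM. In OE33 the order per kilobase was CDC20, BIRC5 (52.3 CPM), BUB3 (27.7), INCENP (20.0), AURKB (18.8), MAD2L1 (18.4), BUB1 (10.8), TTK (9.18), BUB1B (7.90) and KNL1. CDC20 exceeded BIRC5 in 12 of 12 libraries and BUB1B exceeded KNL1 in 12 of 12, whereas INCENP exceeded AURKB in 8 of 12 and AURKB exceeded MAD2L1 in 7 of 12, so these 3 neighbors in the order did not separate. In SK-GT-4 AURKB followed BIRC5 (132 CPM per kilobase) with 46.3, CDC20 exceeded BIRC5 in 10 of 12 libraries, the exceptions being both libraries that stood apart, and TTK (12.9) and BUB1 (12.5) did not separate, with TTK the higher in 5 of 12 libraries.

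**Figure D1:**
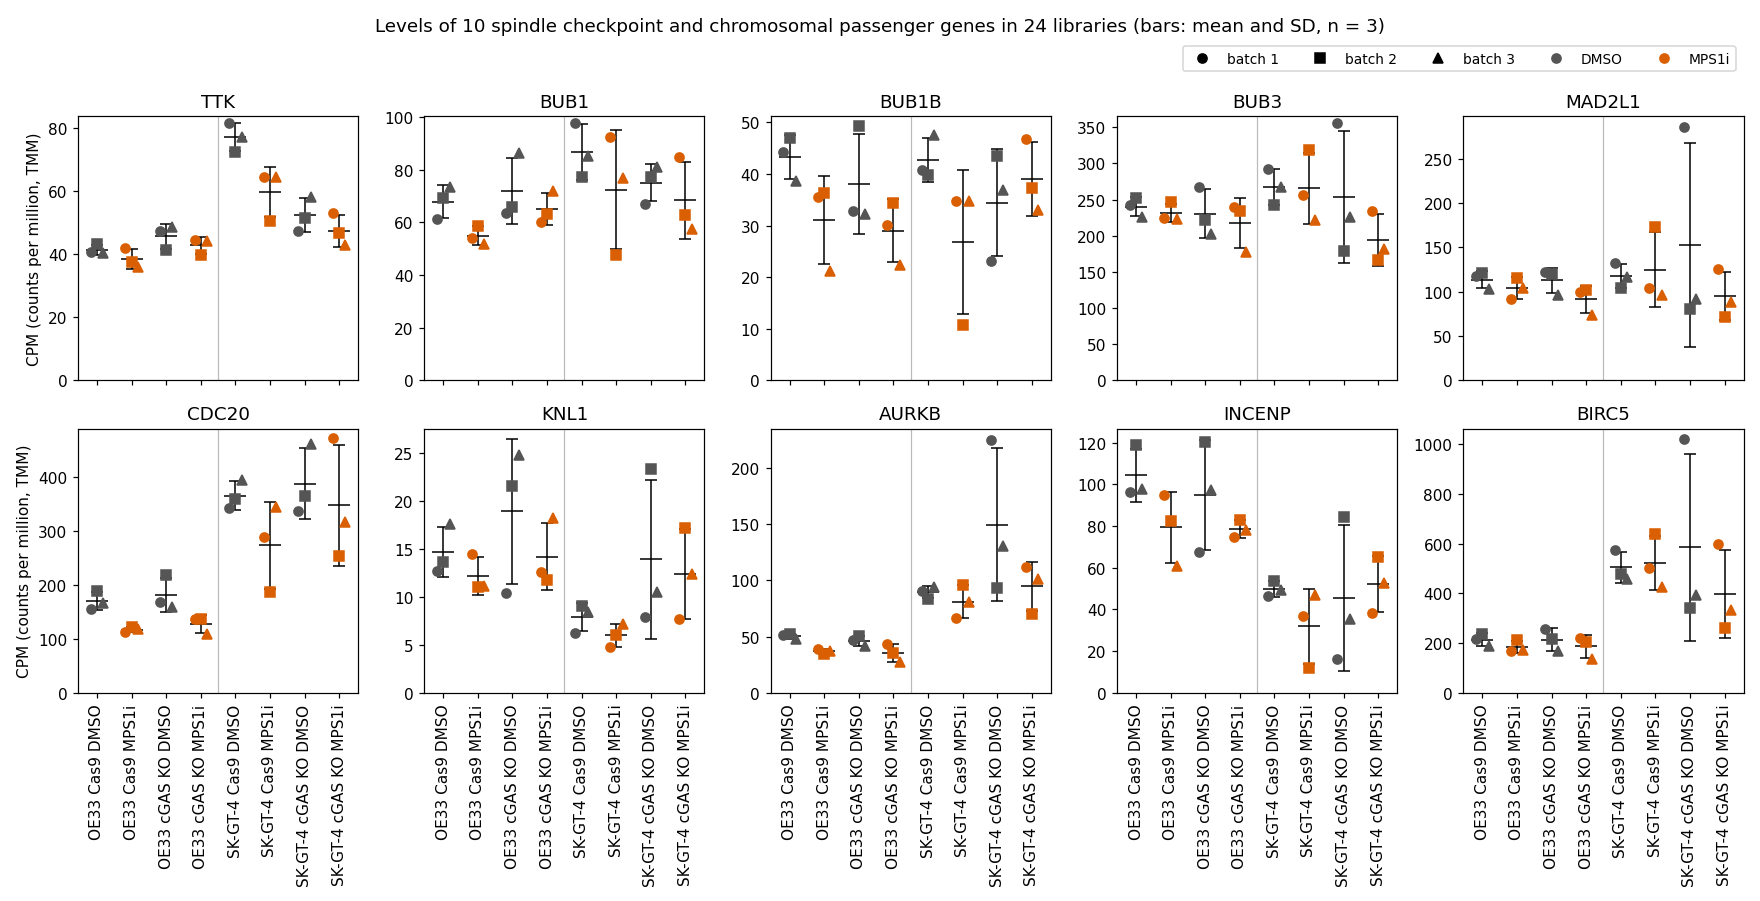
CPM (y axis, linear, from 0) of each of the 10 genes in the 8 groups (x axis), with 1 point per library, the shape giving the batch and the color the treatment; bars are the mean and SD of 3 libraries. CDC20, BIRC5 and AURKB sit higher in SK-GT-4 than in OE33, INCENP sits mostly lower, and BIRC5 spreads from 340.5 to 1018 CPM in SK-GT-4 cGAS KO DMSO.

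The first comparison asked how the genes of the checkpoint responded when its kinase was inhibited. In OE33 all 10 genes had a lower mean after 48 hours of MPS1i in both genotypes, with a median log2 fold change of -0.28 in Cas9 and -0.29 in cGAS KO, while 49.2 and 49.6% of all tested genes were lower. None of the 10 passed an adjusted p of 0.01 in the edgeR quasi-likelihood test, in a comparison where 0.00490% of 20426 genes did in Cas9 and 0 in cGAS KO. At an unadjusted p under 0.05, 5 of the 10 were lower in Cas9 and 4 in cGAS KO, against 3.43 and 3.13% of all genes, and none was higher, against 3.52 and 3.82%. In Cas9 the MPS1i libraries lay wholly below the DMSO libraries for 5 genes (3.90% of all genes) and in cGAS KO for 1 gene (2.16%).

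CDC20 had the largest shift. In OE33 Cas9 it was at 156, 188 and 166 CPM in DMSO and at 113, 121 and 118 CPM in MPS1i in batches 1 to 3. In OE33 cGAS KO it was at 167, 218 and 159.5 CPM in DMSO and at 137, 137 and 109 CPM in MPS1i. All MPS1i libraries were below all DMSO libraries of the same genotype. The log2 fold change was -0.56 (SE 0.12, a fold of 0.679, adjusted p = 0.27) in Cas9 and -0.51 (SE 0.12, a fold of 0.701, adjusted p = 0.44) in cGAS KO, with CDC20 lower in 3 of 3 batches of each. With a replicate block per genotype and batch in place of a block shared by the genotypes, CDC20 was called in both (adjusted p = 0.0012 and 0.0032), where 0.157 and 0.152% of all genes were called lower.

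BUBR1's gene BUB1B, a kinase-like subunit of the checkpoint complex, was at 44.2, 47.0 and 38.7 CPM in OE33 Cas9 DMSO and at 35.5, 36.4 and 21.2 CPM in MPS1i, with all MPS1i libraries below all DMSO libraries. In OE33 cGAS KO it was at 32.7, 49.3 and 32.2 CPM in DMSO and at 30.1, 34.4 and 22.3 CPM in MPS1i, and the groups overlapped. Its log2 fold change was -0.54 (SE 0.15, adjusted p = 0.41) in Cas9 and -0.41 (SE 0.15, adjusted p = 0.62) in cGAS KO. The other subunits differed less. BUB3, which binds both BUB1 and BUBR1, had log2 fold changes of -0.08 and -0.10, and MAD2L1 had -0.15 in Cas9 and -0.32 (SE 0.12, adjusted p = 0.62) in cGAS KO.

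AURKB, the catalytic subunit of the passenger complex, was at 51.1, 52.2 and 47.5 CPM in OE33 Cas9 DMSO and at 39.0, 34.2 and 37.3 CPM in MPS1i, which did not overlap. In OE33 cGAS KO it was at 46.7, 50.3 and 41.8 CPM in DMSO and at 43.8, 35.1 and 27.5 CPM in MPS1i, where 1 MPS1i library lay within the DMSO range. The log2 fold changes were -0.47 (SE 0.14, adjusted p = 0.45) and -0.41 (SE 0.14, adjusted p = 0.61). INCENP, the scaffold of the complex, was at 96.5, 119 and 97.6 CPM in Cas9 DMSO and at 94.8, 82.3 and 60.8 CPM in Cas9 MPS1i, a log2 fold change of -0.41 (SE 0.17, adjusted p = 0.66). The groups did not overlap, but batch 1 differed by only -0.03 on the log2 scale. BIRC5, whose product survivin docks the complex on the centromere, had -0.24 in Cas9 and -0.21 in cGAS KO (SE 0.13 in each).

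TTK itself, whose product is the inhibited kinase, differed little. It was at 40.7, 43.0 and 40.2 CPM in OE33 Cas9 DMSO and at 42.0, 37.4 and 36.0 CPM in MPS1i, and at 47.2, 41.1 and 48.4 against 44.4, 39.7 and 44.2 CPM in cGAS KO. The treated and untreated libraries overlapped in both genotypes, with log2 fold changes of -0.13 (SE 0.12, adjusted p = 0.86) and -0.10 (SE 0.12, adjusted p = 0.89). BUB1, the kinase that marks the inner centromere, had -0.32 (SE 0.12, adjusted p = 0.61) in Cas9, where its 51.9 to 58.8 CPM in MPS1i lay below the 61.1 to 73.2 CPM in DMSO, and -0.15 (SE 0.12) in cGAS KO. The scaffold KNL1 had -0.25 and -0.41 with an SE of 0.23 in each, from 10.4 to 24.8 CPM.

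Within batches the median difference of the 10 genes was negative each time, from -0.24 to -0.42 in OE33 Cas9 and from -0.11 to -0.38 in OE33 cGAS KO, and 7 of the 10 were lower in 3 of 3 batches in each genotype (15.9 and 13.1% of all genes). The number of calls changed with the handling of batches. After removal of batch effects from the counts with ComBat-seq, followed by DESeq2 without a batch term, 6 genes were called lower in OE33 Cas9 (BUB1, BUB1B, CDC20, AURKB, INCENP and BIRC5; 3.23% of all genes were called lower) and 2 in OE33 cGAS KO (MAD2L1 and CDC20; 0.319%). The p-values of that DESeq2 fit do not allow for the batch effects already removed from its counts. Without OE33 cGAS KO DMSO replicate 2, the library with the high CGAS level, CDC20 in cGAS KO was at -0.43 (adjusted p = 0.61) in the edgeR fit.

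**Figure D2:**
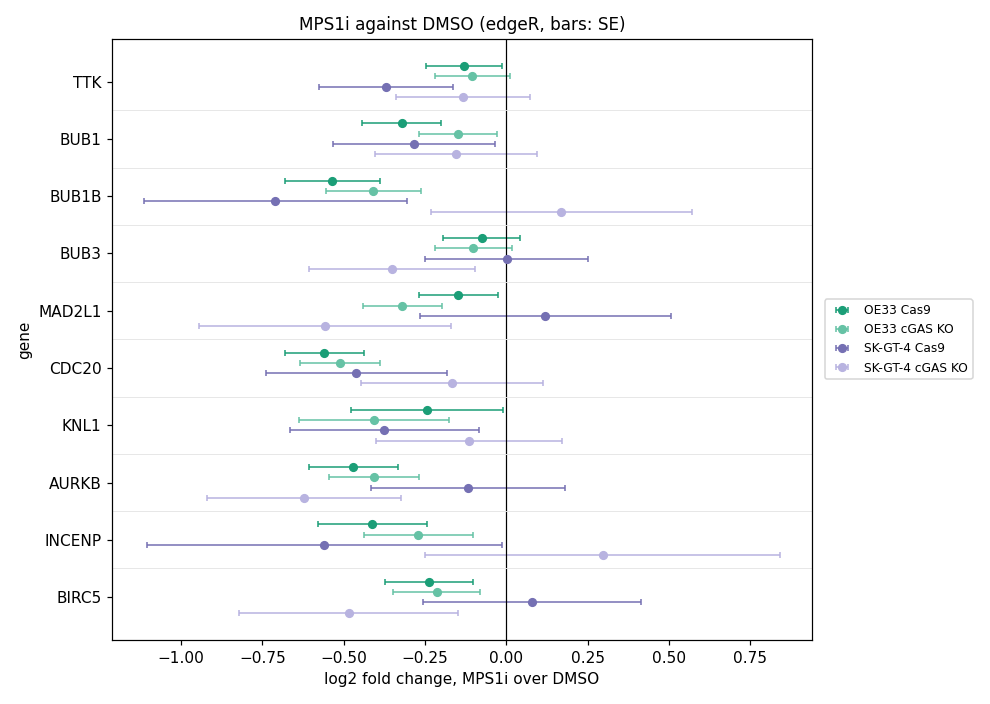
Log2 fold change of MPS1i over DMSO (x axis) with its SE for each of the 10 genes (y axis) in the 4 combinations of cell line and genotype. All 20 OE33 points lie left of 0, with CDC20 the farthest at -0.56 and -0.51, and the SK-GT-4 points scatter more widely.

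In SK-GT-4 the same comparison was less precise. The biological coefficient of variation, the relative spread between replicates, came to 34.0% here and to 15.0% for OE33. Of the 10 genes, 7 had a log2 fold change below 0 in Cas9 (median -0.33) and 8 in cGAS KO (median -0.16). None passed an adjusted p of 0.01, nor an unadjusted p of 0.05, in comparisons where 0 of 22782 genes were called and 2.48 and 1.39% had an unadjusted p under 0.05. TTK was at 81.3, 72.4 and 77.0 CPM in Cas9 DMSO and at 64.2, 50.5 and 64.2 CPM in Cas9 MPS1i, which did not overlap (3.90% of all genes lay so), with a log2 fold change of -0.37 (SE 0.21, adjusted p = 0.98). BUB1B did not overlap either, at 40.8, 39.8 and 47.5 CPM in Cas9 DMSO and 34.8, 10.8 and 34.8 CPM in Cas9 MPS1i (-0.71, SE 0.40, adjusted p = 0.98). CDC20 was at 342, 359 and 395 CPM in Cas9 DMSO and at 288, 186 and 345 CPM in Cas9 MPS1i (-0.46, SE 0.28, adjusted p = 0.98), with 1 treated library inside the DMSO range. In SK-GT-4 cGAS KO, AURKB was at 225, 93.3 and 131 CPM in DMSO and at 112, 70.3 and 102 CPM in MPS1i (-0.62, SE 0.30, adjusted p = 0.97), and these groups overlapped. The 225 CPM, and the 10.8 CPM of BUB1B and 186 CPM of CDC20 in Cas9, came from the libraries that stood apart.

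The 2 libraries that stood apart set the spread of several genes. In the batch 1 library of SK-GT-4 cGAS KO in DMSO, MAD2L1 was at 286 CPM against 81.0 and 92.4 in the other two, and BIRC5 was at 1018 CPM against 340.5 and 395. In the same library INCENP was at 16.3 CPM against 84.3 and 35.5. In SK-GT-4 Cas9 MPS1i replicate 2, MAD2L1 was at 173 CPM, INCENP at 12.1 CPM and BUB1B at 10.8 CPM, against 34.8 CPM for BUB1B in each of the other two. MAD2L1, BUB3 and BIRC5 were thus high, and INCENP and BUB1B low, in both libraries. Without these 2 libraries all 10 genes were lower after MPS1i in each genotype, as in OE33, with medians of -0.29 in Cas9 and -0.19 in cGAS KO, while 49.1 and 49.9% of all genes were lower. AURKB then had -0.42 (SE 0.18, adjusted p = 0.95) in Cas9 and -0.30 (SE 0.18, adjusted p = 1.00) in cGAS KO. In Cas9 TTK had -0.30 (SE 0.17), BUB1B -0.31 (SE 0.18) and CDC20 -0.33 (SE 0.20), each with an adjusted p = 1.00. BUB1 had -0.35 (SE 0.17, adjusted p = 1.00) in cGAS KO, and no gene of the 10 was called. The arms that lost a library held 2 libraries.

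**Figure D3:**
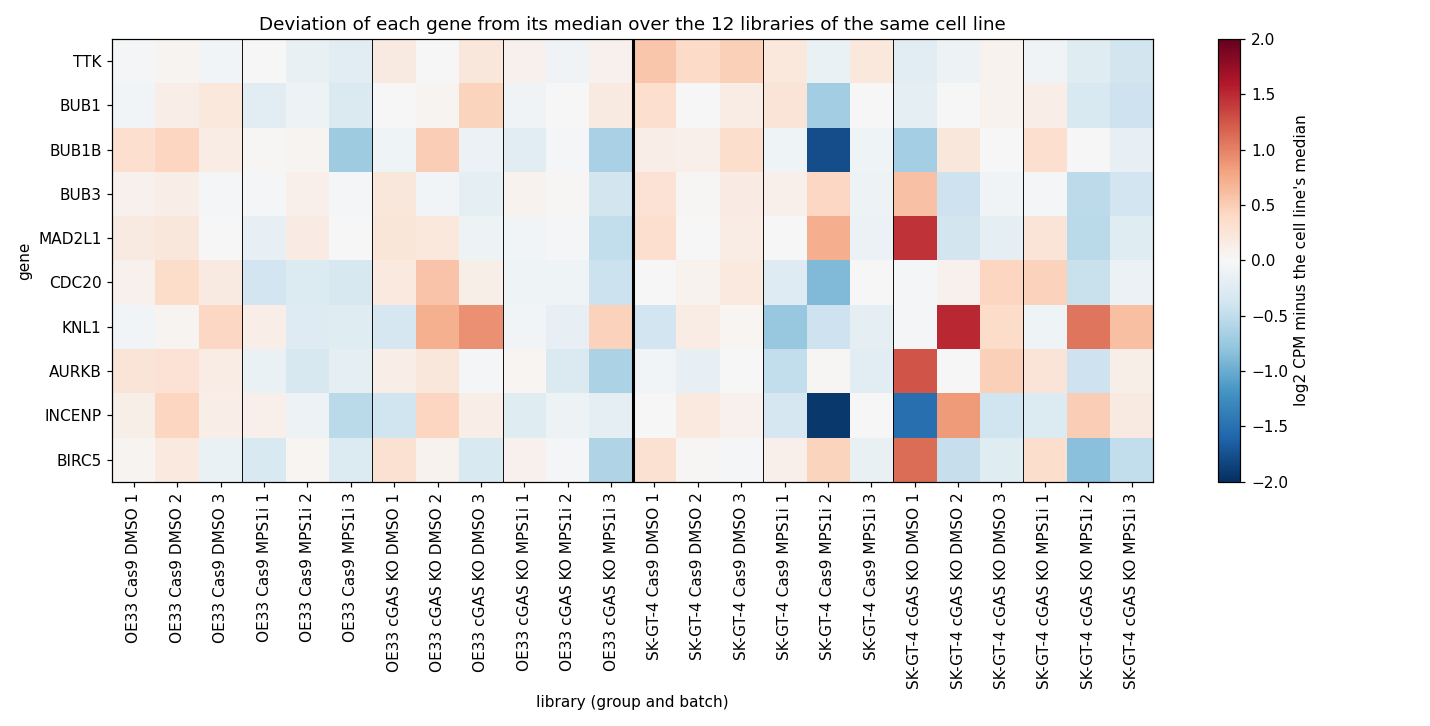
Log2 CPM of each gene (y axis) in each of the 24 libraries (x axis, group and batch) minus its median over the 12 libraries of the same cell line, from blue (lower) to red (higher). The darkest cells fall in SK-GT-4 Cas9 MPS1i replicate 2 and the batch 1 library of SK-GT-4 cGAS KO in DMSO, where single genes deviate by up to 1.93 and 1.51, and KNL1 is also high in SK-GT-4 cGAS KO replicate 2 of both treatments.

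Whether the MPS1i response of these genes depended on cGAS was tested as the difference of the effects, Cas9 minus cGAS KO. In OE33 the differences ran from -0.17 (BUB1, SE 0.17) to 0.17 (MAD2L1, SE 0.17), and that of CDC20 was -0.05 (SE 0.17). In SK-GT-4 they ran from -0.88 (BUB1B, SE 0.56) to 0.68 (MAD2L1, SE 0.55), and without the 2 libraries that stood apart from -0.32 (MAD2L1, SE 0.25) to 0.24 (BUB1, SE 0.24). No difference had an unadjusted p under 0.05 in either line, where 1.88 and 2.41% of all genes did. The OE33 differences include cGAS KO DMSO replicate 2, the library with the high CGAS level, and are not given without it. The effects also did not pass the test of a difference between the cell lines, SK-GT-4 minus OE33, which ran from -0.27 (TTK, SE 0.23) to 0.33 (AURKB, SE 0.34) in Cas9 and from -0.29 (BIRC5, SE 0.37) to 0.56 (BUB1B, SE 0.43) in cGAS KO, with none at an unadjusted p under 0.05 (1.73 and 1.95% of all genes). Without the 2 libraries these ran from -0.20 (MAD2L1, SE 0.21) to 0.36 (INCENP, SE 0.26) in Cas9 and from -0.23 (BUB1, SE 0.20) to 0.29 (BUB1B, SE 0.23) in cGAS KO.

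Between the genotypes at matched treatment, none of the 10 genes was called in OE33, where 1.47% of all genes were called in DMSO and 2.84% in MPS1i. Their log2 fold changes, cGAS KO over Cas9, ran from -0.24 (BUB1B) to 0.31 (KNL1) in DMSO and from -0.22 (MAD2L1) to 0.22 (BUB1) in MPS1i, and none had an unadjusted p under 0.05, which 17.5 and 21.3% of all genes did. BUB1 lay wholly above Cas9 in MPS1i, at 60.3, 63.2 and 72.1 CPM against 54.2, 58.8 and 51.9 CPM (0.22, SE 0.12, adjusted p = 0.32), as did 9.35% of all genes. The OE33 comparison in DMSO includes cGAS KO replicate 2, with CGAS at 15.6 CPM, and is not given without it.

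Between the SK-GT-4 genotypes none of the 10 was called, where 1.76% of all genes were in DMSO and 1.41% in MPS1i. TTK, KNL1 and AURKB in DMSO and KNL1 in MPS1i had an unadjusted p under 0.05, as did 17.5 and 18.4% of all genes. TTK was at 81.3, 72.4 and 77.0 CPM in Cas9 DMSO and at 47.2, 51.5 and 58.0 CPM in cGAS KO DMSO, so all knockout libraries were lower, as they were for 12.3% of all genes. The log2 fold change was -0.57 (SE 0.21, adjusted p = 0.17), and in MPS1i it was -0.33 (SE 0.21, adjusted p = 0.42). Without the 2 libraries that stood apart it was -0.46 (adjusted p = 0.054) and -0.42 (adjusted p = 0.087). KNL1 was at 6.23, 9.08 and 8.40 CPM in Cas9 DMSO and at 7.90, 23.4 and 10.5 CPM in cGAS KO DMSO, and at 4.77, 6.07 and 7.16 against 7.71, 17.2 and 12.4 CPM in MPS1i. The groups overlapped in DMSO and did not in MPS1i (11.5% of all genes lay higher in this way), with log2 fold changes of 0.71 (SE 0.29, adjusted p = 0.23) and 0.97 (SE 0.29, adjusted p = 0.092). Without the 2 libraries KNL1 was called higher in DMSO (0.78, SE 0.22, adjusted p = 0.0049), as were 8.05% of all genes, and in MPS1i it was at 0.73 (adjusted p = 0.014). KNL1 has the longest transcript of the 10 (10250 bases), and its high values of 23.4 and 17.2 CPM came from replicate 2, the libraries with the positive length correlations of 0.384 and 0.380. Without batch 2 its values were 0.34 (SE 0.27, adjusted p = 0.48) and 0.74 (SE 0.27, adjusted p = 0.23), and the part of length was not tested. AURKB in DMSO had 0.68 (SE 0.30, adjusted p = 0.27) with replicate 1 at 225 CPM, and 0.33 (SE 0.18, adjusted p = 0.20) without it and the other library. In MPS1i it had 0.17 (SE 0.30), and 0.46 (SE 0.18, adjusted p = 0.066) without the 2 libraries.

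A clone can differ from its parent in the copy number of a chromosome arm, so each gene was set beside the tested genes that start within 5 Mb of it. TTK lies on chromosome 6 at 80003887 to 80042527 (GRCh38, plus strand), and its 18 neighbors lay at a median of -0.52 on the log2 scale for SK-GT-4 cGAS KO over Cas9 in DMSO, with 77.8% of them lower, and of -0.51 in MPS1i, with 88.9% lower. Across both treatments in OE33 the same neighbors had a median of 0.23 in each treatment, beside 0.11 and 0.13 for TTK. For cGAS KO over Cas9 TTK had the sign of its neighbors in both lines, but in OE33 its values were close to their SE of 0.12. BUB3, on chromosome 10 at 123154277 to 123170467, had 38 neighbors with medians of -0.65 and -0.56 in SK-GT-4 (97.4 and 89.5% lower), while BUB3 itself was at -0.12 (SE 0.25) in DMSO and -0.48 (SE 0.25, adjusted p = 0.35) in MPS1i. KNL1, on chromosome 15 at 40594020 to 40664342, stood apart from its 71 neighbors, whose medians were -0.03 and 0.14. BUB1B lies 373 kb from KNL1 on the same chromosome and had -0.30 (SE 0.40) and 0.58 (SE 0.40). Without the 2 libraries that stood apart the medians in DMSO and MPS1i were -0.44 and -0.54 for the neighbors of TTK, -0.62 in both for those of BUB3 and 0.02 in both for those of KNL1, while BUB3 was at -0.31 and -0.22 and BUB1B at -0.07 and 0.15. Copy number was not measured, and its part in these differences was not tested.

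**Figure D4:**
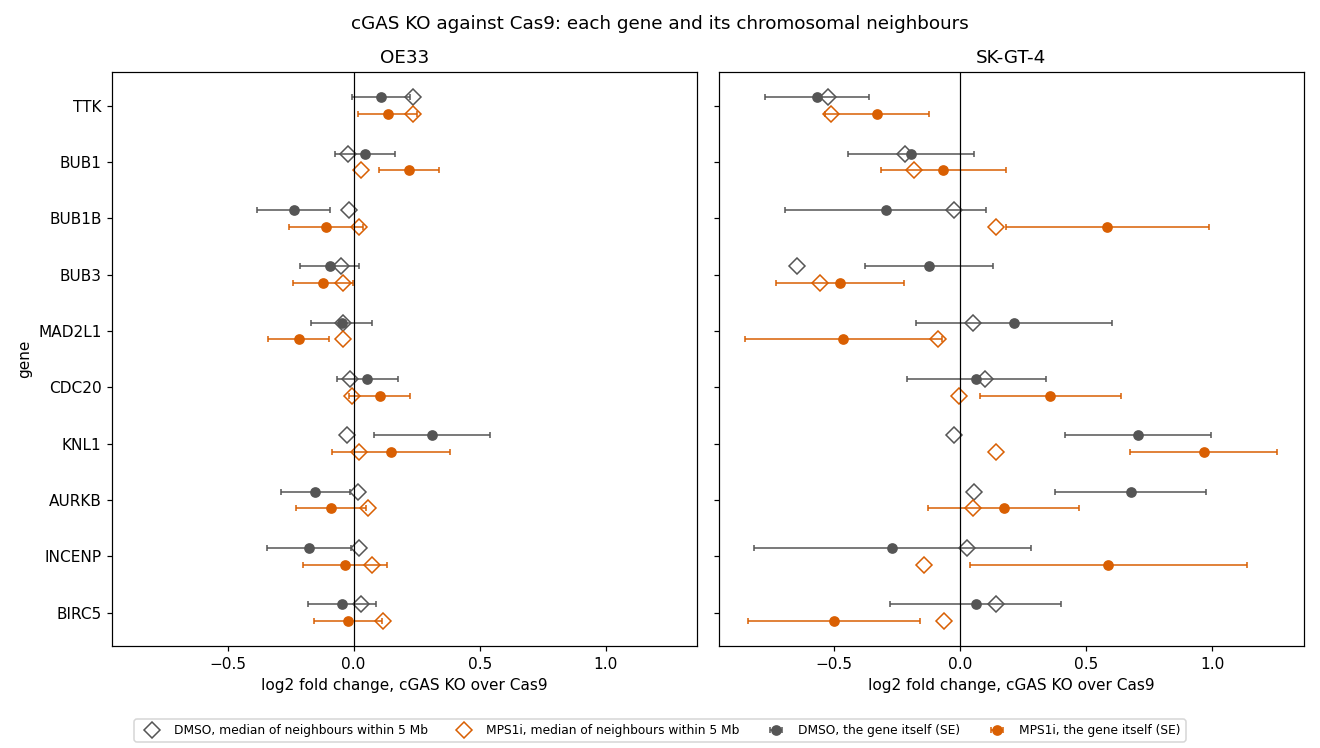
Log2 fold change of cGAS KO over Cas9 (x axis) for each gene (filled points, with SE) and the median of its tested neighbors within 5 Mb (open diamonds) in OE33 (left) and SK-GT-4 (right), by treatment. In SK-GT-4 the neighbors of TTK and BUB3 lie between -0.51 and -0.65, and KNL1 lies to the right of its neighbors in both treatments.

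Calls among the 10 genes were made between the lines, where 19.1 to 23.5% of all genes were called. None was made for treatment, where at most 0.00490% of all genes were called, or for genotype, where 1.41 to 2.84% were. In Cas9 cells with DMSO, TTK, CDC20 and BIRC5 were called higher in SK-GT-4 than in OE33, where 22.0% of 25181 genes were called, 12.4% in the higher direction. In the other 3 comparisons of the lines 4 (Cas9 MPS1i, 23.5% of all genes), 3 (cGAS KO DMSO, 21.6%) and 2 (cGAS KO MPS1i, 19.1%) of the 10 were called, all of them higher in SK-GT-4, as were 13.1, 12.6 and 10.6% of all genes. CDC20 was called in all 4 and AURKB in 3. BUB1, BUB1B, BUB3 and MAD2L1 were called in none. Without batch 3 the only call left in the 4 comparisons was AURKB in cGAS KO DMSO, and the share of all genes called in that fit is not given here. The log2 fold changes in Cas9 DMSO lay between 0.85 and 0.97 for TTK, 1.03 and 1.19 for CDC20 and 1.14 and 1.36 for BIRC5 under every alternative run, that one included.

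CDC20 was at 342, 359 and 395 CPM in SK-GT-4 Cas9 DMSO against 156, 188 and 166 CPM in OE33 Cas9 DMSO, with no overlap, as for 28.1% of all genes in this direction. Its log2 fold change was 1.10 (SE 0.25, a fold of 2.14, adjusted p = 0.0013), and in the other 3 comparisons it ran from 1.09 to 1.44 (adjusted p from 9.1e-05 to 0.0014). AURKB was at 90.6, 83.5 and 94.5 against 51.1, 52.2 and 47.5 CPM, with no overlap either, a log2 fold change of 0.83 (SE 0.26, adjusted p = 0.016) that missed the threshold. In Cas9 MPS1i, cGAS KO DMSO and cGAS KO MPS1i AURKB had 1.14, 1.69 and 1.42 (adjusted p = 0.0014, 2.2e-05 and 0.00019), and without the 2 libraries that stood apart 1.00, 1.30 and 1.42 (adjusted p = 0.00067, 4.3e-05 and 4.0e-06). BIRC5, which encodes survivin, was at 575, 477 and 459 against 215, 238 and 189 CPM in Cas9 DMSO (1.24, SE 0.35, adjusted p = 0.0077), and its value in cGAS KO MPS1i was 1.09 (adjusted p = 0.019). Without the 2 libraries BIRC5 was not called in cGAS KO DMSO (0.81, adjusted p = 0.027, from 1.45 with them) and was called in cGAS KO MPS1i (1.10, adjusted p = 0.0013).

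TTK was higher in SK-GT-4 only in the Cas9 clones at this threshold. It was at 81.3, 72.4 and 77.0 against 40.7, 43.0 and 40.2 CPM in DMSO, which did not overlap (0.90, SE 0.18, a fold of 1.86, adjusted p = 0.00039), and its log2 fold change in MPS1i was 0.63 (adjusted p = 0.0083). In the cGAS KO clones it was 0.20 (SE 0.18, adjusted p = 0.43) and 0.15 (SE 0.18, adjusted p = 0.57), and the difference between these comparisons was not tested. With no filter on low counts TTK was not called in the Cas9 clones either (0.90, adjusted p = 0.013 in DMSO and 0.64, adjusted p = 0.10 in MPS1i). INCENP and KNL1 pointed the other way. INCENP was at 46.2, 53.6 and 49.4 CPM in SK-GT-4 Cas9 DMSO against 96.5, 119 and 97.6 CPM in OE33 (-1.07, SE 0.42, adjusted p = 0.058), and KNL1 was at 6.23, 9.08 and 8.40 against 12.7, 13.7 and 17.7 CPM (-0.89, SE 0.37, adjusted p = 0.068). Both pairs of groups were separate, as for 22.0% of all genes in this direction, and neither value passed the threshold. With no filter INCENP was called lower in Cas9 DMSO (adjusted p = 0.0023), Cas9 MPS1i (adjusted p = 0.00013) and cGAS KO DMSO (adjusted p = 0.0023), as were 8.21, 8.83 and 7.75% of all genes. With the batch number as a replicate block across the lines KNL1 was called lower in Cas9 MPS1i (-1.09, SE 0.32, adjusted p = 0.0093), as were 11.7% of all genes. Without the 2 libraries that stood apart INCENP was called lower in SK-GT-4 Cas9 DMSO (-1.09, SE 0.26, adjusted p = 0.0018), where 13.2% of all genes were called lower, and AURKB joined TTK, CDC20 and BIRC5 among the genes called higher (15.4% of all genes).

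Neighbors moved with some of these genes and not with others, and this differed between the comparisons of the lines. In Cas9 DMSO the 81 neighbors of AURKB, on chromosome 17 at 8204733 to 8210600, had a median of 0.76 between the lines, beside 0.83 for AURKB. The 166 neighbors of INCENP, on chromosome 11 at 62123973 to 62153163, had -0.43 beside -1.07, and the 18 neighbors of TTK had 0.45 beside 0.90. CDC20, on chromosome 1 at 43358955 to 43363203, and BIRC5, on chromosome 17 at 78214186 to 78225636, stood above their neighbors, whose medians were 0.12 (77 genes) and 0.03 (133 genes). In the cGAS KO clones AURKB lay above its neighbors, at 1.69 beside 0.58 in DMSO and 1.42 beside 0.66 in MPS1i. TTK had 0.20 and 0.15 there, beside -0.38 and -0.43 for its neighbors. INCENP had -1.06 and -0.59, beside -0.42 and -0.55. Without the 2 libraries that stood apart the neighbor medians in cGAS KO DMSO were 0.67 for AURKB, -0.22 for TTK and -0.48 for INCENP. INCENP itself ran from -1.67 to -0.64 in that comparison under the alternatives. In Cas9 DMSO the passenger genes had opposite signs between the lines, with AURKB and BIRC5 higher and INCENP lower. Of these only BIRC5 passed the threshold there.

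**Figure D5:**
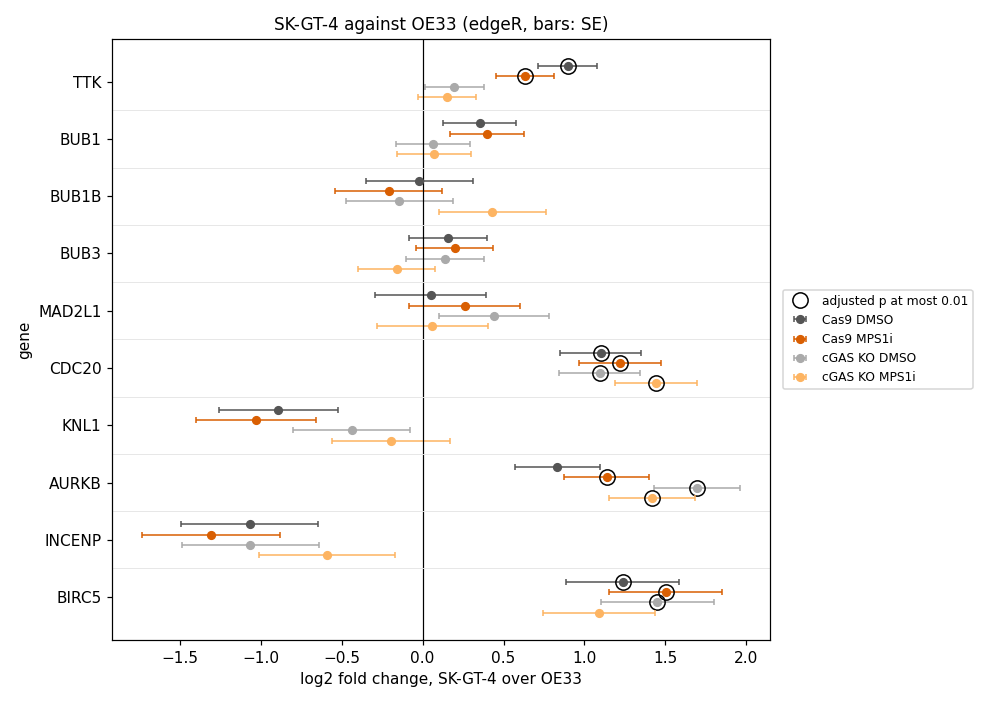
Log2 fold change of SK-GT-4 over OE33 (x axis) with its SE for each gene (y axis) at matched genotype and treatment; rings mark an adjusted p of at most 0.01. CDC20 is ringed in all 4 comparisons, between 1.09 and 1.44, TTK only in the Cas9 pairs (and in neither without the filter on low counts), and INCENP and KNL1 lie left of 0 without a ring.

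Other genes of these pathways were read from 6 lists. For MPS1i against DMSO no gene of any list was called in either line. In OE33 Cas9, 6 of 9 tested passenger partners and centromere recruiters were lower at an unadjusted p under 0.05 (median over the 9 of -0.36), against 3.43% of all genes, and 6 of 9 were in OE33 cGAS KO (median -0.30), against 3.13% of all genes. They included CDCA8 (borealin, the remaining subunit of the passenger complex), at -0.38 (SE 0.12, adjusted p = 0.53) in Cas9 and -0.37 (SE 0.12, adjusted p = 0.60) in cGAS KO, the spindle kinase AURKA at -0.47 and -0.34, and KIF20A, the kinesin that carries the complex to the central spindle, at -0.50 and -0.46. The RNAs of AURKB, INCENP, BIRC5 and CDCA8 thus all had lower means in both OE33 genotypes, and protein was not measured here.

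Of 21 kinetochore and checkpoint partners, 5 were lower in OE33 Cas9 (median -0.23) and 6 in OE33 cGAS KO (median -0.19) at that p. Among all genes 3.43 and 3.13% were lower at that p, and none of the 21 was higher. PLK1, a kinase that acts with BUB1 at the kinetochore, was at -0.54 in both genotypes, and NUF2, which joins NDC80 in binding microtubules, was at -0.47 and -0.49. Of 23 APC/C subunits and substrates, 8 and 7 were lower, among them the substrates cyclin A2 (CCNA2, -0.45 in both) and cyclin B1 (CCNB1, -0.39 and -0.37), and 1 subunit (ANAPC10, 0.45) was higher in Cas9. The counts were 2 and 1 of 16 cell cycle regulators and 0 of 10 phosphatase genes. Of 10 p53 targets 4 and 3 were higher at that p, against 3.52 and 3.82% of all genes, with GDF15 at 0.69 and 0.74, and none was lower. The medians of this list were only 0.06 and 0.02, with 4 and 5 of the 10 below 0. In SK-GT-4 at most 2 genes of any list had an unadjusted p under 0.05 for MPS1i, against 2.48% of all genes in Cas9 and 1.39% in cGAS KO.

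Between the genotypes the only list gene called was CDKN1A, the p53 target that encodes the kinase inhibitor p21, which was higher in OE33 cGAS KO in DMSO (0.83, SE 0.15, adjusted p = 0.0036). Between the lines the kinetochore list had 6 genes called higher in SK-GT-4 Cas9 DMSO and 2 lower, of 21 genes with a median of -0.01, where 12.4% of all genes were called higher and 9.63% lower. NDC80, which binds microtubules at the kinetochore, was higher by 2.32 on the log2 scale, and NSUN2, an RNA methyltransferase and no kinetochore protein although the list held it, was at -1.85. Without NSUN2 the counts were 6 higher and 1 lower of 20. Of 10 passenger partners and centromere recruiters 2 were called higher and 0 lower. They were SGO1, the protector of centromeric cohesion (1.18), and AURKC. AURKC, the germline relative of AURKB, had 0 counts in all 12 OE33 libraries and 216 counts over the 12 SK-GT-4 libraries, which is at least 67.8-fold higher when 3 counts over all OE33 libraries are taken as the floor. The sources used here do not say how reads shared by AURKB and AURKC were counted. Of the 23 genes of the APC/C list 2 were called higher in SK-GT-4 and 0 lower, where 12.4% of all genes were called higher. They were CDC27 (0.99) and FBXO5 (0.97), a subunit and an inhibitor of the APC/C.

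Across the 12 libraries of a line the 10 genes did not move as a single block. Over the 45 pairs of the 10 genes the median Pearson correlation of log2 CPM was 0.415 for OE33 libraries and 0.0541 for SK-GT-4 libraries, given as a description, since libraries share groups, batches and depth. BUB1B and CDC20 correlated at 0.744 and 0.766, and BUB3 and BIRC5 at 0.918 and 0.929. MAD2L1 and INCENP correlated at 0.245 in OE33 and at -0.833 in SK-GT-4, where both libraries that stood apart were high for MAD2L1 and low for INCENP. Over the 10 SK-GT-4 libraries without them that correlation was -0.587, BUB1B and CDC20 were at 0.541, BUB3 and BIRC5 at 0.888, and the median over the 45 pairs was 0.284. Among 9705 genes the 5 outside the set whose levels most resembled the mean of the 10 genes were ARHGAP19, KIF2C, KIFC1, CDC7 and E2F4, with the smaller of the correlations of both lines at 0.886, 0.880, 0.861, 0.855 and 0.851 over 12 libraries each. Their correlations over the 10 SK-GT-4 libraries were 0.726, 0.916, 0.933, 0.823 and 0.801.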

How the data were processed

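RNA was measured in 24 libraries of 8 groups. The authors selected poly(A) RNA, sequenced 150-base paired ends, aligned the reads with HISAT2 2.0.5 to GRCh38, and assigned them to genes with featureCounts 1.5.0. The deposited values are raw counts per gene, and 0 value columns lacked a sample. The annotation release, the strand setting and the handling of reads with several matches are not given in the sources used here. The study removed batch effects with ComBat and tested with DESeq2.

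Counts were analyzed in R 4.3.3 with edgeR 4.0.16 (quasi-likelihood test, TMM factors). The study's filter (total count of 5 or more, nonzero in 4 or more libraries) left 20426 genes in OE33, 22782 in SK-GT-4 and 25181 in both. Each line was fitted with its 4 groups and with batch as a block; the lines were compared in 24 libraries without a block, and their MPS1i effects with a block per line and batch. P-values were adjusted over all genes by Benjamini-Hochberg and called at 0.01. Levels are CPM with TMM factors (prior count 2 on the log scale). The batch labels pair the libraries. Same-numbered DMSO and MPS1i libraries had deviations that correlated at a median of 0.744 in OE33 (6 of 6 over 0.1) and 0.464 in SK-GT-4 (5 of 6). The labels call the replicates batches and do not name separate cultures, while the study's methods call them biological, so p-values measure the spread between these libraries.

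The 10 genes, the lists and the tests were chosen with earlier results of these data known. All 10 genes were named in each comparison, and of each list at most 4 called genes, CGAS, and the 5 genes most like the set; CDCA8, AURKA, KIF20A, PLK1, NUF2, CCNA2, CCNB1, ANAPC10 and GDF15 were named for MPS1i after their values were seen. The fit was tested on simulated counts with planted changes larger than those of the 10 genes after MPS1i. That test does not show how well changes of their size are found. A chi-square comparison of every pair of libraries found no duplicate. Alternatives used DESeq2 1.42.0, ComBat-seq of sva 3.50.0, RLE factors, edgeR's own filter, no filter, other blocks, a threshold of 0.05, and left-out batches and libraries; correlations and neighbors without the 2 SK-GT-4 libraries, and the list without NSUN2, were added after the data were seen. Promoter sequences came from RefSeq (GRCh38.p14), and figures were drawn with matplotlib 3.10.9.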

Additional observations from a re-analysis of the deposited data

How the results depend on the processing

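No called value changed sign under any alternative, while uncalled values near 0 did (in SK-GT-4 Cas9, MAD2L1, BUB3 and BIRC5 after MPS1i turned lower without both libraries that stood apart). Of MPS1i calls among the 10 genes, OE33 Cas9 had 0 as reported, 1 (CDC20) without a filter, 1 with DESeq2, 1 with a replicate block per genotype and batch and 6 with ComBat-seq then DESeq2; OE33 cGAS KO had 0, 1 with that replicate block and 2 with ComBat-seq. Without any block 0 were called. Between the lines the batch number as a replicate block gave 3, 5, 3 and 3 calls in Cas9 DMSO, Cas9 MPS1i, cGAS KO DMSO and cGAS KO MPS1i in place of 3, 4, 3 and 2, with KNL1 (lower) and BIRC5 (higher) gained, and it changed no other call. Between genotypes in SK-GT-4 DMSO, 1 gene (KNL1) was called without both libraries that stood apart.

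Between the lines, 5 genes instead of 3 were called in Cas9 DMSO without both of these libraries. With no filter the counts were 3, 4, 4 and 3, but TTK was not among them and INCENP was in the first 3. Leaving out 1 batch or 1 library, the counts ran from 0 to 4 in Cas9 DMSO, 0 to 5 in Cas9 MPS1i, 1 to 4 in cGAS KO DMSO and 0 to 3 in cGAS KO MPS1i. Without batch 3 the counts were 0, 0, 1 and 0, and the cause was not tested; fewer libraries enter that fit.

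Medians of neighbors, cGAS KO over Cas9, moved with the window. For TTK they were 0.43 within 2 Mb in OE33 MPS1i, and in SK-GT-4 DMSO -0.41 within 2 Mb and -0.69 within 10 Mb. In SK-GT-4 within 10 Mb they were -0.54 (DMSO) and -0.40 (MPS1i) for BUB3, -0.10 (DMSO) for AURKB, and -0.063 (DMSO) and -0.21 (MPS1i) for INCENP. Within 2 Mb they were 0.22 (DMSO) for CDC20, -0.18 (MPS1i) for INCENP and -0.13 (MPS1i) for BIRC5. Without both libraries that stood apart, an alternative chosen after seeing the data, they were -0.020 (DMSO) for CDC20, -0.081 (DMSO) and -0.11 (MPS1i) for INCENP and -0.0070 (DMSO) for BIRC5 within 5 Mb.

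SEs of the MPS1i effects reached 0.23 in OE33 (KNL1, the gene with the lowest CPM) and 0.55 in SK-GT-4 (INCENP).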
